A study of Homo sapiens with 8 samples.

Results

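The 9 genes described here are commonly used as readouts of NRF2, the transcription factor that drives the antioxidant response: FTH1, FTL, HMOX1, NQO1, TXNRD1, SRXN1, GSR, GCLC and GCLM. They were taken by symbol, and all 9 were found among the 42125 genes of the TFAP2C KD table and the 23393 genes of the UBA2 KD table. All 9 also passed the filter on low counts in both tables, which kept 14991 and 13381 genes. The cells were HCT116, a human colorectal cancer line, and per the labels all 8 libraries came from a derivative that stably carries a Dox-inducible (Tet-On) shRNA against UBA2, the SAE2 subunit of the enzyme that activates SUMO. In one experiment these cells received control siRNA (2 libraries) or siRNA against the transcription factor TFAP2C (2 libraries) for 48 hrs. In the other they were kept without Dox, with DMSO per the labels (2 libraries), or were given Dox at 1 μg/mL for 5 days to induce the shRNA (2 libraries). All libraries of the induced group had Dox and no library of its control did, so the shRNA and Dox itself cannot be told apart. The labels name DMSO for the control only, so an effect of DMSO cannot be told apart from these either. Whether the line is 1 clone is not stated. Nothing in the labels says that replicates were separate cultures, so p-values measure only the spread between these libraries, which may be technical.

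NRF2 (encoded by NFE2L2) is held low in unstressed cells by KEAP1, which hands it to the CUL3-RBX1 ubiquitin ligase for degradation. Oxidants and electrophiles disable KEAP1, NRF2 accumulates, pairs with a small MAF protein and binds antioxidant response elements, while BACH1 occupies some of the same elements as a repressor. Its targets store iron (FTH1, FTL), break down heme (HMOX1), reduce quinones (NQO1), keep thioredoxin, peroxiredoxin and glutathione reduced (TXNRD1, SRXN1, GSR) and make glutathione (GCLC, GCLM). In the intestine this program is part of the defence against dietary and inflammatory oxidants, and it is often raised in tumours.

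The promoters of these genes were searched for 3 motifs on both strands, because the first is where NRF2 binds and the second is the recognition sequence of AP-2 proteins such as TFAP2C. RefSeq windows from 250 bases before to 50 bases after a transcription start (GRCh38.p14) were on hand for 6 of the 9 genes, in 7 windows. HMOX1, GSR and FTH1 were not among them. The core of the antioxidant response element, TGACNNNGC, was present in 3 of the 7 windows, those of GCLM and TXNRD1, and in 13.3% of all 35116 windows. The AP-2 consensus GCCNNNGGC was present in the windows of GCLM, TXNRD1 and FTL, and in 23.2% of all windows. The AP-1 motif TGANTCA was in 0 of the 7 windows and in 7.71% of all. The stretches that hold the antioxidant response element core are printed on the strand of the gene, with the 9 bases of the motif in capitals. It reads there as TGACNNNGC or as its reverse complement.
GCLM chr1:93909435-93909485, minus strand: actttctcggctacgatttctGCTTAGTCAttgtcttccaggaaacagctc
TXNRD1, upstream start, chr12:104215659-104215788, plus strand: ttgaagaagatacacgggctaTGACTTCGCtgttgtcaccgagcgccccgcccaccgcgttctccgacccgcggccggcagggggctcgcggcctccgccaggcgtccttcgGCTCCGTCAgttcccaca
TXNRD1, downstream start, chr12:104286909-104286959, plus strand: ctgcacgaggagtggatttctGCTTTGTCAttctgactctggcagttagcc
In GCLM the motif lay from -34 to -26 relative to the start. In TXNRD1 it lay from -99 to -91 and from -8 to 1 at the upstream start, and from -102 to -94 at the downstream start. The AP-2 matches of GCLM, a pair that share 2 bases, and of FTL are shown the same way, since TFAP2C KD lowered an AP-2 factor.
GCLM chr1:93909546-93909603, minus strand: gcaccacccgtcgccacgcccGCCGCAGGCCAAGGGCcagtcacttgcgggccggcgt
FTL chr19:48965178-48965228, plus strand: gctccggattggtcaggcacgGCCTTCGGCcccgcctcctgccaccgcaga
These matches describe the letters of the windows only. Sequence outside the windows was not searched, so a gene without a match here may still have an element elsewhere.

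The targeted genes were looked at first. TFAP2C was at 18.9 and 20.5 CPM (read counts scaled to the TMM-adjusted library size) with control siRNA and at 3.46 and 4.30 CPM in TFAP2C KD, a log2 fold change of -2.34 (edgeR's quasi-likelihood test, adjusted p = 7.67e-06). UBA2 was at 162 and 146 CPM without Dox and at 147 and 153 CPM with Dox, a log2 fold change of -0.036 (SE 0.056, adjusted p = 0.766 by the same test), so its mRNA did not fall detectably. These libraries are therefore called "labelled UBA2 KD". The counts do not bear on the level of UBA2 protein. Total counts were 20785035 to 24465109 in the TFAP2C KD experiment and 18213739 to 20607813 in the other. The 9 genes took 0.249% to 0.279% and 0.257% to 0.318% of them. The epithelial keratins and EPCAM were expressed in all libraries, with 7 of 10 colorectal epithelial markers above 1 CPM in each library of both tables. VIL1, LGALS4 and CEACAM5 were not, with at most 6 counts in any library, and CEACAM5 had 0 counts throughout the UBA2 KD table. Of 14 markers of other cell types (immune, endothelial, stromal and others), 4 (CD3E, COL1A2, DCN, LUM) had 0 counts throughout the TFAP2C KD table and 5 (PECAM1, CDH5, COL1A2, DCN, LUM) throughout the UBA2 KD table. Of the 14, 2 exceeded 1 CPM in every library of a table: COL1A1, at 43.2 to 47.5 CPM in the TFAP2C KD experiment and 14.9 to 21.8 CPM in the other, with VWF (1.39 to 1.93 CPM) in the former and CD68 (5.02 to 5.77 CPM) in the latter. The summed level of the 14 was 48.5 to 50.8 CPM with control siRNA and 46.2 to 46.5 CPM in TFAP2C KD, and 22.0 to 28.4 CPM without Dox and 21.7 to 23.4 CPM labelled UBA2 KD.

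In the libraries labelled UBA2 KD, 4 of the 9 genes were higher than without Dox and 0 were lower: FTH1, NQO1, TXNRD1 and SRXN1. Over all genes tested, 9.98% passed the threshold (Benjamini-Hochberg adjusted p under 0.05) and 5.52% passed it with higher expression. The median log2 fold change of the 9 genes was 0.17, beside -0.00042 over all genes. Both libraries lay beyond both controls for 8 of the 9 genes, and for 51.3% of all genes tested. HMOX1 was the exception. In TFAP2C KD, 0 of the 9 genes passed the threshold by edgeR's quasi-likelihood test, and 0 by DESeq2's Wald test. An unadjusted p under 0.05 was reached by 3 of them (HMOX1, TXNRD1 and FTH1), and by 1889 of all 14991 genes tested. There 0.74% of all genes passed, the groups did not overlap for 6 of the 9 genes and for 44.7% of all, and the median log2 fold change of the 9 was 0.15, beside -0.0038 over all genes.

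**Figure D1:**
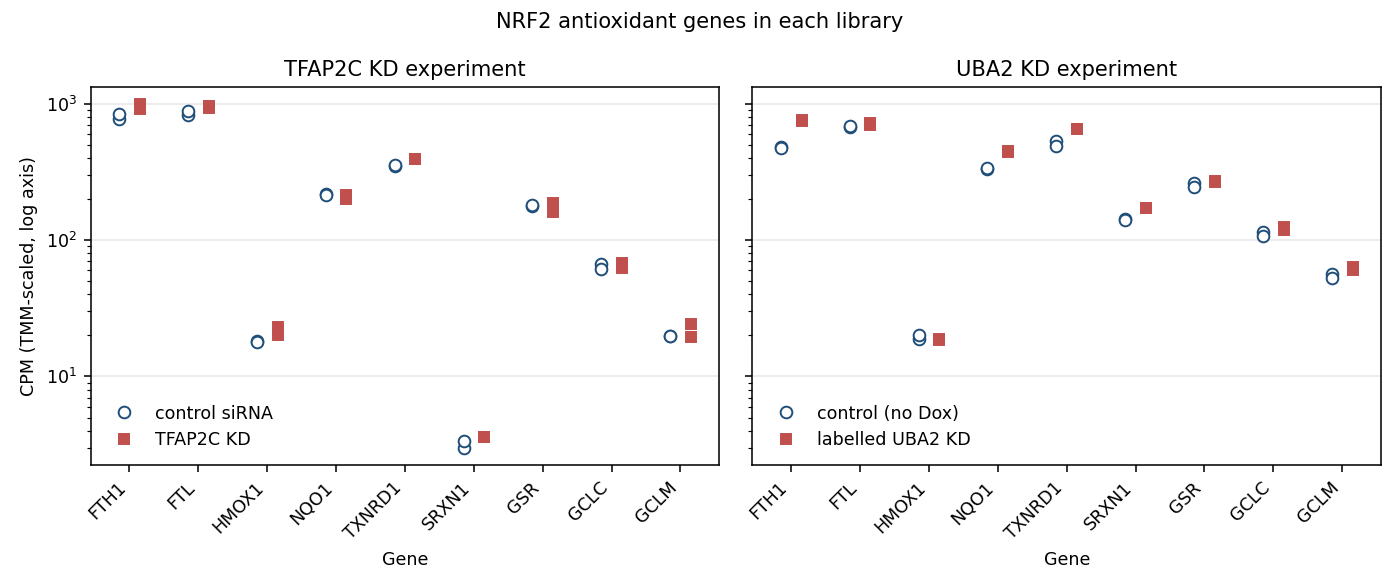
Level of each of the 9 genes in each of the 8 libraries, as CPM on a log axis, with open circles for controls and filled squares for knockdown libraries, in 1 panel per experiment. In the UBA2 KD experiment the squares of FTH1 (748 and 751 CPM) and NQO1 (439 and 451 CPM) stand clear of their controls, while those of HMOX1 overlap them.

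The ferritin subunits gave the largest and nearly the smallest change among the 9 genes. FTH1 (chr11:61731757-61735132, hg19) encodes the heavy chain of ferritin, which oxidises iron for storage. It was at 480.4 and 476 CPM without Dox and at 751 and 748 CPM labelled UBA2 KD, with no overlap and libraries of a group within 5 CPM of each other. This was a log2 fold change of 0.65 (SE 0.042, 1.57-fold, edgeR's quasi-likelihood adjusted p = 3.20e-13), and 2.92% of the genes tested changed by more. FTL (chr19:49468566-49470136, hg19), the light chain, which helps the iron core form, was at 671 and 679 CPM without Dox and at 720.4 and 699.6 CPM labelled UBA2 KD. The groups did not overlap, but the log2 fold change of 0.072 (SE 0.042, adjusted p = 0.316) did not pass. Reads of the processed FTH1 pseudogenes cannot be told apart with certainty from those of FTH1. The listed pseudogene with counts, FTH1P3, had 39 and 54 counts without Dox and 53 and 60 labelled UBA2 KD, and with the pseudogene rows added FTH1 still changed by 0.65. BEST1 lies on the opposite strand, overlaps 5.30% of the FTH1 span in this table and had 18 and 11 counts without Dox and 41 and 54 labelled UBA2 KD. The strand setting of the counting is not stated.

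Since ferritin is a shell of both chains, the ratio of the 2 counts was taken within each library, where library scaling cancels. FTL had 1.40 and 1.43 counts per count of FTH1 without Dox and 0.959 and 0.935 labelled UBA2 KD, so that FTL was ahead in both controls and behind in both induced libraries. The difference of the log2 ratios was -0.58 (SD 0.021 without Dox and 0.025 labelled UBA2 KD, n = 2 each). In the TFAP2C KD experiment the ratio was 1.07 and 1.05 with control siRNA and 0.976 and 1.02 in TFAP2C KD, a difference of -0.086 on the log2 scale. An exact permutation test of 2 libraries against 2 cannot give a p below 0.3333, and no other test was made of these ratios.

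**Figure D2:**
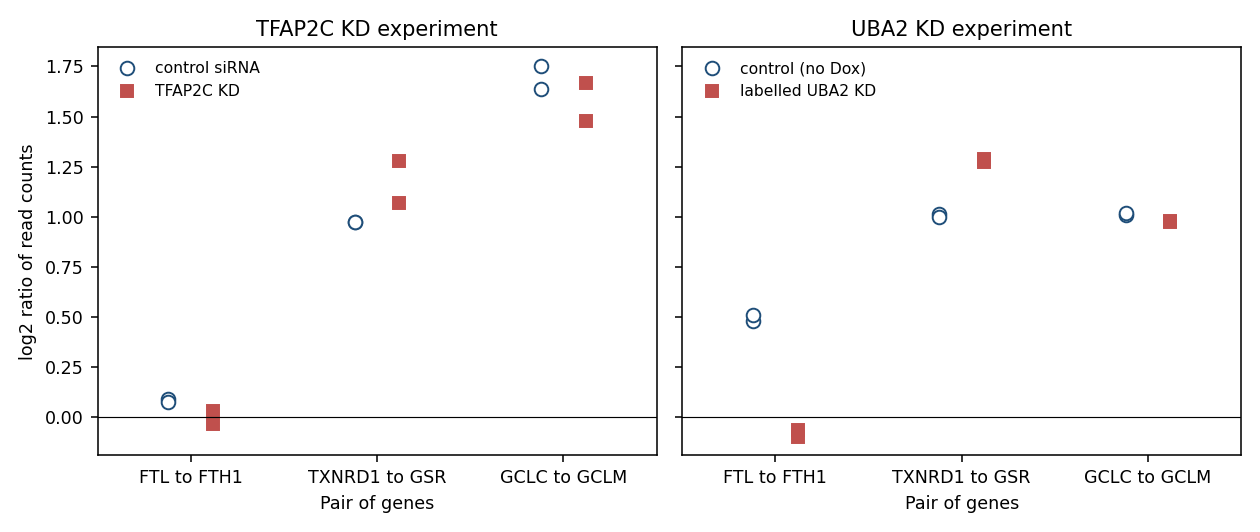
Log2 ratio of the read counts of 3 pairs of genes within each library, with open circles for controls and filled squares for knockdown libraries. The FTL to FTH1 ratio moves from 0.48 and 0.51 without Dox to -0.061 and -0.096 labelled UBA2 KD, while GCLC to GCLM lies between 0.98 and 1.02 in the same libraries.

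In TFAP2C KD neither ferritin passed the threshold. FTH1 was at 772 and 839 CPM with control siRNA and at 985 and 912 CPM in TFAP2C KD, and FTL at 824 and 885 CPM against 962 and 933 CPM. Neither pair of groups overlapped. The log2 fold changes were 0.24 (SE 0.073, edgeR's quasi-likelihood adjusted p = 0.209) for FTH1 and 0.15 (SE 0.069, adjusted p = 0.398) for FTL. FTH1 passed in 3 of 8 alternatives that kept all libraries, with no filter on low counts (adjusted p = 0.0381), with all 8 libraries in 1 fit (adjusted p = 0.0499) and with replicate numbers crossed as a block, chosen after seeing the data (adjusted p = 0.0171). It also passed when 1 library was left out: without TFAP2C KD replicate 2 its log2 fold change was 0.29 (adjusted p = 8.55e-05 by the same test, with the lone library assumed to vary like the others), and FTL (0.17, adjusted p = 0.0351) and HMOX1 (0.34, adjusted p = 0.00674) passed as well. The same omission raised the number of genes that passed from 111 to 2825. BEST1 overlaps 73.2% of the FTH1 span in this table (chr11:61959718-61967634, GRCh38) and had 31 and 37 counts with control siRNA and 41 and 28 in TFAP2C KD.

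HMOX1 (chr22:35777060-35790207, hg19) encodes heme oxygenase 1, which opens the heme ring and releases its iron. It was the only one of the 9 whose value did not lie above both controls in both libraries labelled UBA2 KD. It was at 18.8 and 20.03 CPM without Dox and at 18.8 and 18.4 CPM labelled UBA2 KD, a log2 fold change of -0.062 (SE 0.094, edgeR's quasi-likelihood adjusted p = 0.760). In TFAP2C KD it was at 22.9 and 20.1 CPM beside 18.2 and 18.03 CPM with control siRNA, a log2 fold change of 0.25 (SE 0.10, adjusted p = 0.334), the largest of the 9 in that experiment. The groups did not overlap, and HMOX1 passed without TFAP2C KD replicate 2, as given above.

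NQO1 (chr16:69743304-69760533, hg19), a quinone reductase often used as a readout of NRF2, rose in the libraries labelled UBA2 KD. It was at 333 and 337 CPM without Dox and at 451 and 439 CPM labelled UBA2 KD, a log2 fold change of 0.41 (SE 0.045, 1.33-fold, edgeR's quasi-likelihood adjusted p = 3.25e-08). The spread within each group was small beside this difference. In TFAP2C KD it was at 213 and 198 CPM, just below the 217 and 213 CPM with control siRNA, and its log2 fold change of -0.067 (SE 0.068, adjusted p = 0.724) did not pass.

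Among the genes that keep thiols reduced, 2 of 3 rose in the libraries labelled UBA2 KD. TXNRD1 (chr12:104606488-104744085, hg19), the cytosolic thioredoxin reductase, was at 532 and 486 CPM without Dox and at 655 and 649 CPM labelled UBA2 KD, a log2 fold change of 0.36 (SE 0.045, 1.28-fold, edgeR's quasi-likelihood adjusted p = 5.63e-07). SRXN1 (chr20:627268-656823, hg19), sulfiredoxin, which restores over-oxidised peroxiredoxins, was at 144 and 139 CPM without Dox and at 171 and 172 CPM labelled UBA2 KD, a log2 fold change of 0.28 (SE 0.052, 1.21-fold, adjusted p = 0.000356). GSR (chr8:30535580-30585486, hg19), which reduces oxidised glutathione, was at 264 and 243 CPM without Dox and at 268 and 269 CPM labelled UBA2 KD, a log2 fold change of 0.082 (SE 0.049, adjusted p = 0.346). The GSR controls were further apart than the gap between the groups. TXNRD1 and GSR are related flavoenzymes, and within each library TXNRD1 had 2.02 and 1.996 counts per GSR count without Dox and 2.45 and 2.42 labelled UBA2 KD, a difference of 0.28 on the log2 scale. In the TFAP2C KD experiment this ratio was 1.97 and 1.96 with control siRNA and 2.10 and 2.42 in TFAP2C KD, also without overlap, a difference of 0.20 on the log2 scale.

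In TFAP2C KD these 3 genes did not pass. TXNRD1 was at 351 and 352 CPM with control siRNA and at 392 CPM in both TFAP2C KD libraries, a log2 fold change of 0.16 (SE 0.064, edgeR's quasi-likelihood adjusted p = 0.334). The TXNRD1 groups were tight and apart, whereas GSR overlapped, at 178 and 179 CPM against 187 and 162 CPM (log2 fold change -0.037, adjusted p = 0.878). SRXN1 was barely counted in this table. It had 73, 70, 86 and 81 counts (2.996 and 3.36 CPM, then 3.59 and 3.62 CPM), where the UBA2 KD table had 2688 to 3198 counts. In the TFAP2C KD table another gene on the same strand, AL121758.1, covers 99.8% of the SRXN1 span and has 0 counts in all 4 libraries, and in GENCODE on GRCh37 90.7% of the exon bases of SRXN1 are shared with a gene of the same strand. The part of this overlap in the low SRXN1 counts was not tested, and the log2 fold change of 0.19 (SE 0.17, adjusted p = 0.681) has the widest error of the 9.

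Glutathione synthesis starts with glutamate-cysteine ligase, of which GCLC is the catalytic and GCLM the modifier subunit. Both were slightly above their controls in the libraries labelled UBA2 KD and neither passed. Of the genes with an antioxidant response element core shown above, TXNRD1 thus passed there and GCLM did not. GCLC (chr6:53362140-53409927, hg19) was at 114 and 108 CPM without Dox and at 119 and 124 CPM labelled UBA2 KD, a log2 fold change of 0.13 (SE 0.057, edgeR's quasi-likelihood adjusted p = 0.142). GCLM (chr1:94352590-94375012, hg19) was at 56.8 and 53.1 CPM without Dox and at 60.6 and 62.9 CPM labelled UBA2 KD, a log2 fold change of 0.17 (SE 0.066, adjusted p = 0.104). GCLC had 2.01 and 2.03 counts per GCLM count without Dox and 1.97 in both libraries labelled UBA2 KD, groups that did not overlap but differed by only -0.035 on the log2 scale. In TFAP2C KD the groups overlapped for both, with GCLC at 66.2 and 61.4 CPM against 62.3 and 67.4 CPM, and GCLM at 19.7 and 19.8 CPM against 19.6 and 24.2 CPM. The log2 fold changes there were 0.022 (SE 0.079, adjusted p = 0.930) and 0.15 (SE 0.11, adjusted p = 0.607).

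**Figure D3:**
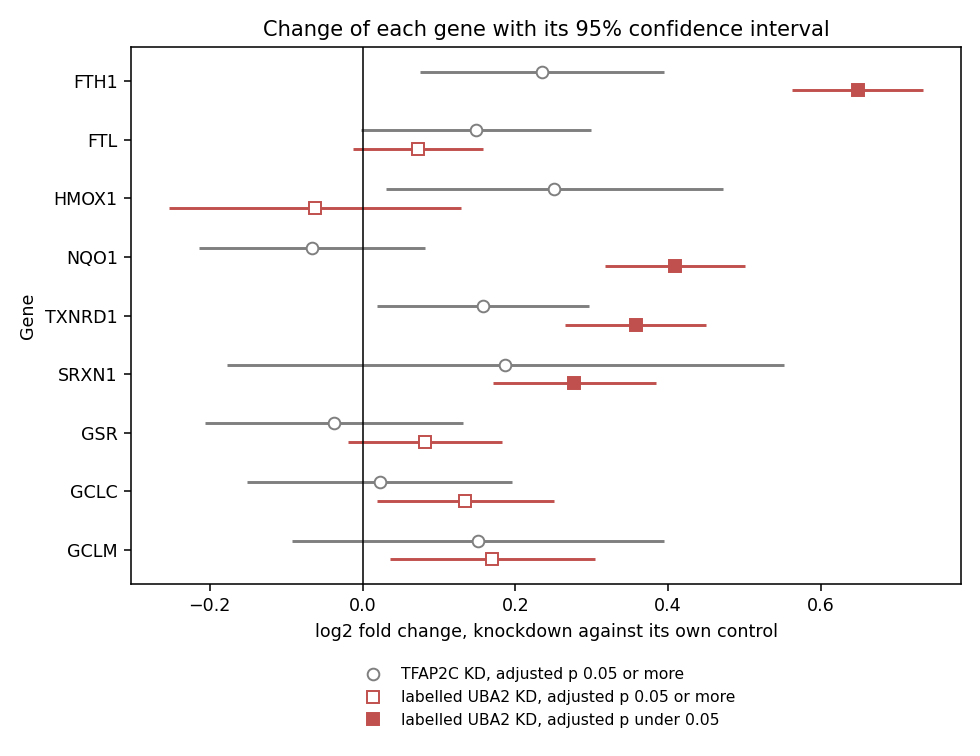
Log2 fold change of each gene against its own control with its 95% confidence interval, circles for TFAP2C KD and squares for labelled UBA2 KD, filled where the adjusted p was under 0.05. The filled squares are FTH1 (0.65), NQO1 (0.41), TXNRD1 (0.36) and SRXN1 (0.28), and no circle is filled.

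Per length of gene, the ferritins were the most abundant of the 9 by a wide margin in every group. In RPKM (CPM divided by the length in kilobases that the table gives for a gene), the control siRNA means were 986 ± 49.7 for FTL, 403 ± 23.7 for FTH1, 72.6 ± 0.86 for NQO1, 52.6 ± 0.12 for TXNRD1, 49.9 ± 0.18 for GSR, 7.90 ± 0.047 for HMOX1, 7.40 ± 0.39 for GCLC, 3.64 ± 0.013 for GCLM and 1.18 ± 0.095 for SRXN1 (SD, n = 2). In that group no neighbours in the order overlapped. The SRXN1 level there is uncertain, since it rests on 73 and 70 counts and another gene of the same strand covers 99.8% of its span. Without Dox the order was FTL (479 ± 3.71 RPKM), FTH1 (390 ± 2.56), NQO1 (130 ± 1.23), GSR (80.6 ± 4.59), TXNRD1 (75.6 ± 4.84), SRXN1 (40.5 ± 0.94), GCLM (17.9 ± 0.86), GCLC (17.9 ± 0.75) and HMOX1 (12.3 ± 0.55). There GSR and TXNRD1 overlapped, as did GCLM and GCLC. Labelled UBA2 KD, FTH1 at 612 ± 1.97 RPKM stood above FTL at 503.9 ± 10.5 RPKM, and TXNRD1 at 96.8 ± 0.58 above GSR at 85.2 ± 0.24. The order of FTH1 and FTL there depends on the length given for FTL, which was 1.409 kb. GENCODE on GRCh37 has 871 exon bases for FTL over the same span, and its length in the TFAP2C KD experiment was 0.867 kb. A shorter length would raise the FTL value, so which ferritin was ahead per length is uncertain labelled UBA2 KD. Levels are not comparable between the tables, which use other gene models. The ferritins took 65.2% to 68.4% of the counts of the 9 genes in one table and 44.1% to 45.8% in the other.

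The change of each gene was then compared between the experiments, in 1 fit over all 8 libraries and the 13179 genes tested there. The experiments differ in agent, duration and counting as well as in the targeted gene, and these cannot be told apart. The log2 fold change was smaller in TFAP2C KD than labelled UBA2 KD by more than the error for NQO1 (difference -0.49, SE 0.076, edgeR's quasi-likelihood adjusted p = 0.00226) and FTH1 (-0.43, SE 0.078, adjusted p = 0.00765). Over all genes, 2.37% passed this test. NQO1 passed with each library left out in turn. FTH1 passed in 4 of 8 such fits and lost the call without control siRNA replicate 2 (-0.35, adjusted p = 0.107), without control replicate 1 (-0.42, adjusted p = 0.0544), without control replicate 2 (-0.42, adjusted p = 0.0605) and without labelled UBA2 KD replicate 1 (-0.42, adjusted p = 0.0692). TXNRD1 (-0.21, 95% interval -0.38 to -0.049, adjusted p = 0.205) and HMOX1 (0.30, 95% interval 0.025 to 0.58, adjusted p = 0.302) did not pass, though TXNRD1 did without TFAP2C KD replicate 2 (-0.22, adjusted p = 0.0429). For GCLC, GCLM, SRXN1, GSR and FTL the interval included 0.

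Of 11 genes for NRF2 and its regulators, 3 were higher and 1 was lower in the libraries labelled UBA2 KD. This is 36.4% of them beside 9.98% of all genes, and their median log2 fold change was -0.025. NFE2L2, which encodes NRF2, was at 171 and 172 CPM without Dox and at 207 and 201 CPM labelled UBA2 KD (log2 fold change 0.25, edgeR's quasi-likelihood adjusted p = 0.000697). Its relative NFE2L1, a sensor of proteasome capacity, changed by 0.28 (adjusted p = 8.16e-05) and MAFG, a small MAF partner of NRF2, by 0.28 (adjusted p = 0.000895). RBX1, the RING subunit of the ligase that degrades NRF2, fell by 0.34 (adjusted p = 0.0211), and lost the call without control replicate 2 (-0.25, adjusted p = 0.215) and without labelled UBA2 KD replicate 1 (-0.23, adjusted p = 0.234). KEAP1, at 121 CPM in both controls and at 110 and 112 CPM labelled UBA2 KD (-0.12, adjusted p = 0.203), and BACH1 (0.093, adjusted p = 0.550) did not pass. The threshold was not met by NFE2L2 when all 8 libraries shared 1 fit (0.26, adjusted p = 0.0519).

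Of 18 other NRF2 targets tested, 2 were higher and 1 was lower labelled UBA2 KD, which is 16.7% of them beside 9.98% of all genes, with a median log2 fold change of 0.036. SLC7A11, the cystine importer that feeds glutathione synthesis, was at 131 and 120 CPM without Dox and at 237 and 248 CPM labelled UBA2 KD (log2 fold change 0.95, edgeR's quasi-likelihood adjusted p = 1.33e-14). Both of its induced libraries were far above both controls. The efflux pumps of the ABCC family went both ways, with ABCC3 at 0.77 (adjusted p = 1.62e-10) and ABCC2 at -0.44 (adjusted p = 2.25e-07). TXN, the thioredoxin that TXNRD1 reduces, was at 186 and 203 CPM without Dox and at 201 and 215 CPM labelled UBA2 KD, and the groups overlapped.

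Of 23 glutathione genes tested, 4 were higher and 0 were lower in the libraries labelled UBA2 KD, with a median log2 fold change of 0.038. This is 17.4% of them, beside 9.98% of all genes called in either direction and 5.52% called higher. The 4 higher glutathione genes were CHAC1, which breaks glutathione down, at 2.03 (edgeR's quasi-likelihood adjusted p = 1.32e-15), GPX8, a peroxidase of the endoplasmic reticulum, at 0.34 (adjusted p = 0.000261), GSS, which completes glutathione, at 0.32 (adjusted p = 0.000241), and OPLAH, which salvages oxoproline, at 0.28 (adjusted p = 0.0216). CHAC1 went from 8.12 and 9.54 CPM to 39.4 and 33.2 CPM. Among these genes are thus makers and breakers of glutathione. Of 16 thioredoxin and peroxiredoxin genes, 1 was higher and 3 were lower (25%, beside 9.98% of all genes), with a median of -0.029. SESN2, a stress-induced sestrin, was at 25.3 and 27.9 CPM without Dox and at 65.2 and 60.0 CPM labelled UBA2 KD (1.23, adjusted p = 6.06e-14). The lower ones were SESN3 (-0.65, adjusted p = 0.00384), MSRB3 (-0.45, adjusted p = 0.00649) and PRDX3, the mitochondrial peroxiredoxin (-0.17, adjusted p = 0.0172). This list had 2 calls in place of 4 without labelled UBA2 KD replicate 1. SESN3 lost the call without labelled UBA2 KD replicate 1 (-0.48, adjusted p = 0.0985) and MSRB3 without labelled UBA2 KD replicate 2 (-0.40, adjusted p = 0.0553). SLC7A11, CHAC1 and SESN2 are known targets of ATF4, the factor of the amino acid and stress response. A part of ATF4 in these changes was not tested.

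Of 21 heme and iron genes, 1 was lower labelled UBA2 KD (4.76%, beside 9.98% of all genes called), and the median log2 fold change was -0.027. The lower gene was CPOX, a late enzyme of heme synthesis, at 570.3 and 567 CPM without Dox and at 457 and 477 CPM labelled UBA2 KD (log2 fold change -0.28, edgeR's quasi-likelihood adjusted p = 1.80e-05). The 3 superoxide dismutase and catalase genes did not pass, and 0 of them had an unadjusted p under 0.05 by edgeR or passed by DESeq2. SOD1 was at 259 and 263 CPM against 247 and 251 CPM, and CAT at 52.0 and 52.9 CPM against 54.7 and 53.8 CPM. In all, 10 genes of the 6 lists were higher and 6 were lower among 92 tested (17.4%, beside 9.98% of all genes). Their median log2 fold change was 0.0042. The summed level of the epithelial markers was also higher, 2220 to 2243 CPM without Dox and 2457 to 2549 CPM labelled UBA2 KD. Of 7 tested, 3 (EPCAM, KRT8 and KRT18) passed upward and 1 (ELF3) downward (57.1%, beside 9.98% of all genes). In TFAP2C KD the sum was higher too, 3248 to 3519 CPM beside 2921 to 3042 CPM with control siRNA, and 0 of 7 passed. The part of these marker changes in the changes of the 9 genes was not tested.

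In TFAP2C KD the same lists held 2 genes past the threshold among 92 tested, by edgeR's quasi-likelihood test (2.17%, beside 0.74% of all genes). An unadjusted p under 0.05 was reached by 14 of the 92 and by 1889 of all 14991 genes tested. The median log2 fold change was 0.045. ABCC2 was at 56.1 and 53.2 CPM with control siRNA and at 37.3 and 40.3 CPM in TFAP2C KD (log2 fold change -0.50, adjusted p = 0.0165, but 0.196 without control siRNA replicate 1). GGT1, which splits extracellular glutathione, was at 3.90 and 3.84 CPM against 7.80 and 6.40 CPM (0.88, adjusted p = 0.0212), and DESeq2's Wald test gave it an adjusted p of 0.106. GGT1 has near-identical paralogs, so its counts are uncertain. NFE2L2 (0.12, adjusted p = 0.574), KEAP1 (0.25, adjusted p = 0.256) and BACH1 (-0.19, adjusted p = 0.466) did not pass. Without TFAP2C KD replicate 2, KEAP1 (0.38, adjusted p = 2.84e-06) and BACH1 (-0.33, adjusted p = 0.00191) did, and NFE2L2 did without TFAP2C KD replicate 1 (0.24, adjusted p = 0.0229).

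**Figure D4:**
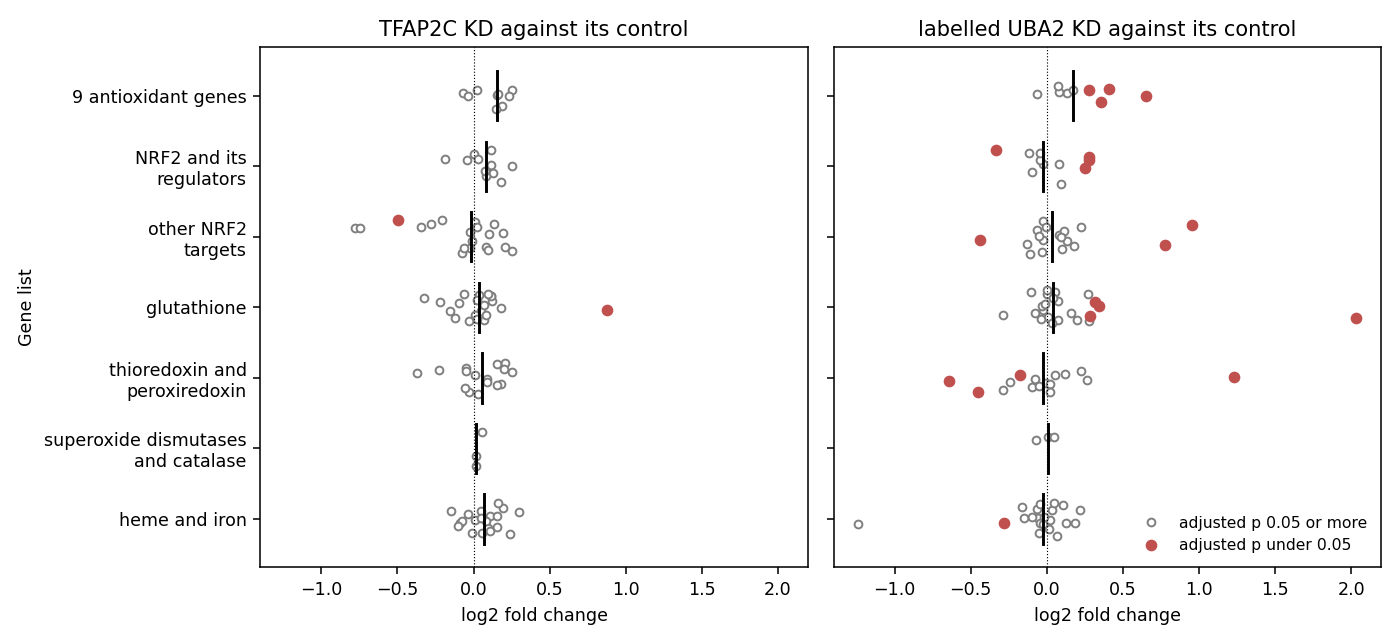
Log2 fold change of every tested gene of the 9 and of the 6 pathway lists, 1 point per gene, in 1 panel per experiment, with filled points where the adjusted p was under 0.05 and a black bar at the median of each list. Labelled UBA2 KD, 4 points of the 9 genes are filled and all lie above 0, while the lists hold filled points on both sides, 10 above and 6 below.

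For the genes that rose, the genes whose profile over the 8 libraries was closest were found by the root mean square difference of log2 CPM after centring within each experiment, among 12157 genes. NQO1 was closest to TRNP1 (0.031) and ZBTB12 (0.033), beside its own root mean square of 0.149. TXNRD1 was closest to ZNF697 (0.030) and EMP1 (0.031), and SRXN1 to CLDN7 (0.017) and SMAGP (0.030). FTH1 was closest to GPAT3 (0.029) and WARS (0.034). None of these neighbours was another of the 9 genes. Only the 2 closest of 12157 genes were taken for each, so this does not say whether the 9 vary together. The SRXN1 profile rests in part on 70 to 86 counts a library in the TFAP2C KD table.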

How the data were processed

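The authors aligned single-end mRNA reads to hg19 with TopHat2, counted them on RefSeq genes with HTSeq (version 0.9.1 per the submitters' processing notes) and deposited unnormalized counts, 1 table per experiment. The TFAP2C KD table carries GRCh38 positions and Ensembl gene types, unlike the methods, so each knockdown was tested against its control within its own table. The difference between the experiments was tested in 1 fit of all 8 libraries, over the symbols found in both tables. Strand setting: not given in the sources used here. Genes were filtered with filterByExpr, scaled by TMM and tested two-sided with edgeR 4.0.16's quasi-likelihood test in R 4.3.3, and p-values were adjusted over all genes tested. The biological coefficient of variation was 6.28% (TFAP2C KD) and 3.56% (UBA2 KD). Standard errors were derived from the F statistics. DESeq2 1.42.0, other scalings and filters, a replicate block and leaving out each library were run as alternatives. For each knockdown against its own control, 1 fit of all 8 libraries was a further alternative. The scripts' tests were checked on simulated counts. The 9 genes and the lists were chosen with earlier results of these data known. Outside the 9 genes, named genes are NFE2L2, KEAP1, BACH1 and, per list, up to 3 genes that passed with the largest change, no overlap of the groups and an average of 1 log2 CPM or more. OPLAH, PRDX3, TXN, SOD1 and CAT were named after their values had been seen. Of 103 listed genes, GPX1 was not listed in the TFAP2C KD table.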

Additional observations from a re-analysis of the deposited data

Results flagged for a closer look

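For 2 of the 9 genes the change differed between the experiments by the test of the difference itself. The log2 fold change of NQO1 was lower in TFAP2C KD than in the libraries labelled UBA2 KD by 0.49 (difference -0.49, edgeR's quasi-likelihood adjusted p = 0.00226). In TFAP2C KD alone its change of -0.067 did not pass (adjusted p = 0.724 by edgeR's quasi-likelihood test). Its 2 libraries there lay just below both controls, the nearest at 212.6 against 213.3 CPM. Labelled UBA2 KD, its 2 libraries lay above both controls. Groups did not overlap for 44.7% of all genes tested in TFAP2C KD and for 51.3% labelled UBA2 KD. The difference for FTH1 was -0.43 (adjusted p = 0.00765 by the same test), with both changes above 0, and it passed in 4 of 8 fits that left out 1 library. The experiments differ in agent, duration and counting, and these cannot be told apart.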

How the results depend on the processing

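The calls of FTH1, NQO1, TXNRD1 and SRXN1 labelled UBA2 KD kept their direction and side of the threshold under all alternatives run, and the count of the 9 genes called stayed at 4 with each library left out. All genes called there numbered 1336, 656 by DESeq2's Wald test, 696 with all 8 libraries in 1 fit and 833 to 1271 with a library left out. UBA2 itself moved from -0.11 to 0.038 with a library left out, and it turned positive without control replicate 1. For TFAP2C KD, 111 genes were called, 398 with no filter, 172 with a replicate block, 271 with all 8 libraries in 1 fit and 49 to 2825 with a library left out. Of the 9 genes 1, FTH1, was called there with no filter (adjusted p = 0.0381) and in the fit of all 8 libraries (adjusted p = 0.0499), and 0 to 3 with a library left out. Genes of the 6 lists called in TFAP2C KD numbered 5 with no filter and 5 in the fit of all 8, and 1 to 31 with a library left out. The difference between the experiments was called for 1 to 3 of the 9 genes with a library left out. Besides UBA2, the direction turned for 5 values: in TFAP2C KD, GCLC (-0.0060 with library size only, -0.039 to 0.079 with a library left out), GCLM (-0.0047 to 0.30) and GSR (-0.15 to 0.067), BACH1 labelled UBA2 KD (-0.034 to 0.23) and the difference for GCLM (-0.20 to 0.14). The cause was not tested.

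Replicate numbers did not pair the libraries: deviations of same-numbered libraries from their group means correlated at -0.184 in the TFAP2C KD experiment and 0.0158 in the other. The replicate block changed no call of the 9 genes. With the numbers crossed, an alternative chosen after seeing the data, 467 genes, 1 of the 9 and 5 of the lists were called in TFAP2C KD. Summing ferritin rows with pseudogene rows could not be run for TFAP2C KD, whose table lists none under those names. With 2 libraries a group, depth and replication limit small changes, above all for SRXN1 in the TFAP2C KD table.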
